A study of Mus musculus with 12 samples.

Results

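The comparison described here set Itga8+ mesenchymal stem cells (Itga8+ MSCs) against the Itga8- cells of the same bone surface fraction, the Itga8-Alcam+ bone-lining cells (Itga8- BLCs), across all genes and in both directions. It used 6 of the 12 RNA-seq libraries of the series, 3 of each population, and the members were chosen by the sort alone. Both populations came from wild-type male C57BL/6 mice aged 8 to 10 weeks at steady state. Femora, tibias and iliac bones were flushed of marrow, fragmented and digested with collagenase, and Alcam+Sca-1- cells lacking CD45, Ter119 and CD31 were sorted as Itga8+ or Itga8-, with 2000 cells per sample. The groups thus shared every gate except Itga8. The sample labels name the Itga8- cells osteoblasts and give bone marrow as the tissue, whereas the study's methods describe endosteal bone-lining cells. The labels do not say whether the 3 libraries of a population came from separate mice, so p-values measure only the spread between these libraries, which may be technical. The remaining 6 libraries held CD51+CD140a+ MSCs or Sca-1+ MSCs and are used only as reference levels. The question was which transcripts separated the Itga8+ cells from their Itga8- neighbours.

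Integrin α8, encoded by Itga8, pairs with integrin β1 and binds matrix proteins that carry an RGD (arginine-glycine-aspartate) motif. Alcam is an adhesion molecule carried by cells of the osteoblast lineage on the bone surface. Osteoblasts lay down a type I collagen matrix and mineralize it with the help of acidic secreted proteins such as Dmp1, bone sialoprotein (Ibsp) and osteopontin (Spp1), under the transcription factors Runx2 and Sp7. Cells of tendon and ligament, which insert into bone, are marked by the transcription factor Scx and by its target tenomodulin (Tnmd).

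Of 12 tendon and ligament genes tested that the study had not itself named as candidates, 4 were higher in Itga8+ MSCs. So were 4 of 23 microfibril and elastic fibre genes, of which Mfap4 was such a candidate, against 0.617% of all genes. Without Itga8- replicate 1, none of those 4 tendon genes and 1 of the 4 microfibril genes passed the test, and without Itga8- replicate 3, 1 of each. Of 20 osteoblast genes 6 were lower, and of 9 osteocyte genes 3, against 0.975% of all genes. All lists were chosen with earlier results of these data known, so their shares are not independent evidence. Tnmd averaged 2302 ± 2215 against 27.5 ± 7.21 CPM (mean ± SD, n = 3 each) and Mfap4, a microfibril-associated glycoprotein, 421 ± 119 against 19.7 ± 6.72 CPM. Dmp1 and the osteocalcin gene Bglap lay in the opposite direction, with Dmp1 almost undetected in Itga8+ MSCs. Chondrocyte genes and the cytokines of the LepR+ marrow stroma did not pass the test in either direction.

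Levels are counts scaled to library size (CPM) after TMM scaling of the deposited counts, and triplets of values give replicates 1, 2 and 3 in order. A gene was called when edgeR's quasi-likelihood test gave a Benjamini-Hochberg adjusted p (FDR) under 0.1 with at least a doubling or halving, the limits that the study set. At those limits the study, which used the program iDEP, reported more genes higher in Itga8+ MSCs than are called here. A positive log2 fold change means higher in Itga8+ MSCs. Library depth was 17580677 to 27574679 counts. The floor used for genes without a count in a population was 3 counts over its 3 libraries together. Intervals and floors cover counting error only, because PCR copies cannot be told from separate molecules. In bulk samples, fewer cells of a type and less RNA per cell cannot be told apart.

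Replicates of both populations varied more than those of the reference populations. The median SD of log2 CPM was 0.73 in Itga8+ MSCs and 0.54 in Itga8- BLCs, against 0.27 in CD51+CD140a+ MSCs and 0.23 in Sca-1+ MSCs. The libraries also differed by exonic gene length. Per doubling of length, the deviation of a library from the mean of the 6 changed by 0.07, -0.37 and 0.32 log2 units in Itga8+ MSCs and by -0.03, 0.29 and -0.27 in Itga8- BLCs. The slopes averaged 0.004 in Itga8+ MSCs and -0.004 in Itga8- BLCs, so that they differed between replicates and hardly between populations. Mitochondrial transcripts and ribosomal protein genes took their largest shares in the libraries that favoured short genes, Itga8+ replicate 2 (0.546% and 1.10%) and Itga8- replicate 3 (0.359% and 0.946%). Each gene was therefore tested again after the fitted length trend of each library had been removed.

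**Figure D1:**
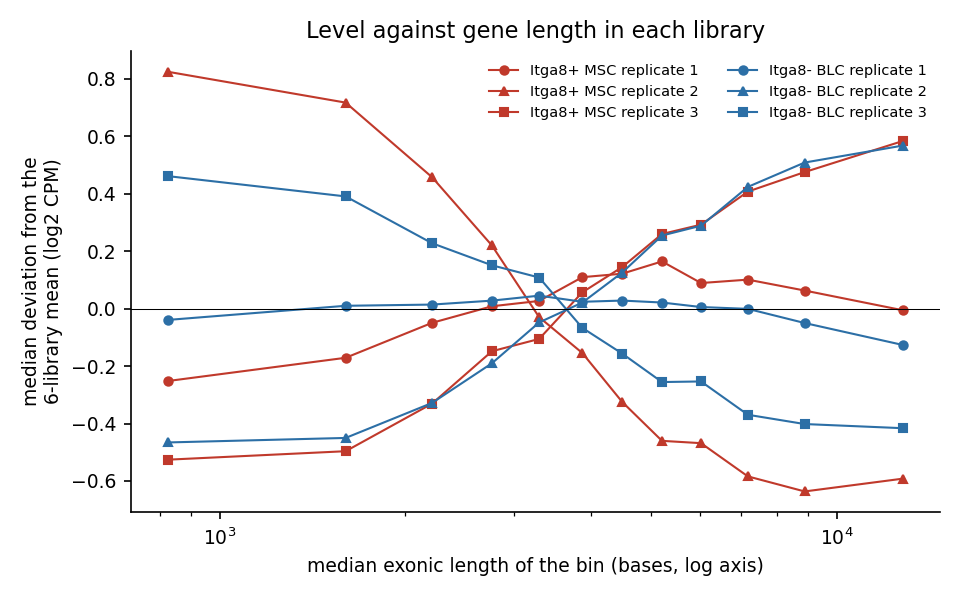
Median deviation of log2 CPM from the mean of the 6 libraries (vertical axis) in 12 bins of genes ordered by exonic length (horizontal axis, bases, log scale). Red lines are Itga8+ MSC libraries and blue lines Itga8- BLC libraries. Itga8+ replicate 2 and Itga8- replicate 3 slope down with length, Itga8+ replicate 3 and Itga8- replicate 2 slope up, and replicate 1 of each population is nearly flat.

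Of 17328 genes tested, 107 were called higher in Itga8+ MSCs (0.617% of genes) and 169 lower (0.975%). These shares are the background for the counts of each list given below. The median log2 fold change was 3.82 among the genes called higher and -4.16 among those called lower, against 0.09 over all tested genes. The libraries of the populations did not overlap for any of the 107 and 169 called genes. Scaling by library totals alone moved the median of all genes to 0.35 and the split to 160 higher and 162 lower, that is from 38.8% to 49.7% higher calls. Every Itga8+ library lay above every Itga8- library for 6.78% of all tested genes and below for 7.78%. The two-sided exact permutation test of 3 libraries against 3 gave its smallest possible p, 0.1, for each called gene. That value is fixed wherever the groups do not overlap, so this test adds nothing to the calls. With the length trend removed, 106 of the 107 and 162 of the 169 were called again, and 77 and 112 further genes were called, so that 1.06% and 1.58% of genes were called higher and lower. The calls lost were Map1b among the higher genes and Bambi, Cadm1, Ccn4, Gm42836, Gucy1a1, Rab27b and Tbxas1 among the lower. Calls also depended on single libraries. In fits that left out 1 library, 19 to 135 genes were called higher and 54 to 181 lower, with the fewest higher calls without Itga8- replicate 1 and the fewest lower calls without Itga8+ replicate 1. In all 6 such fits, 16 of the higher and 47 of the lower genes were called.

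**Figure D2:**
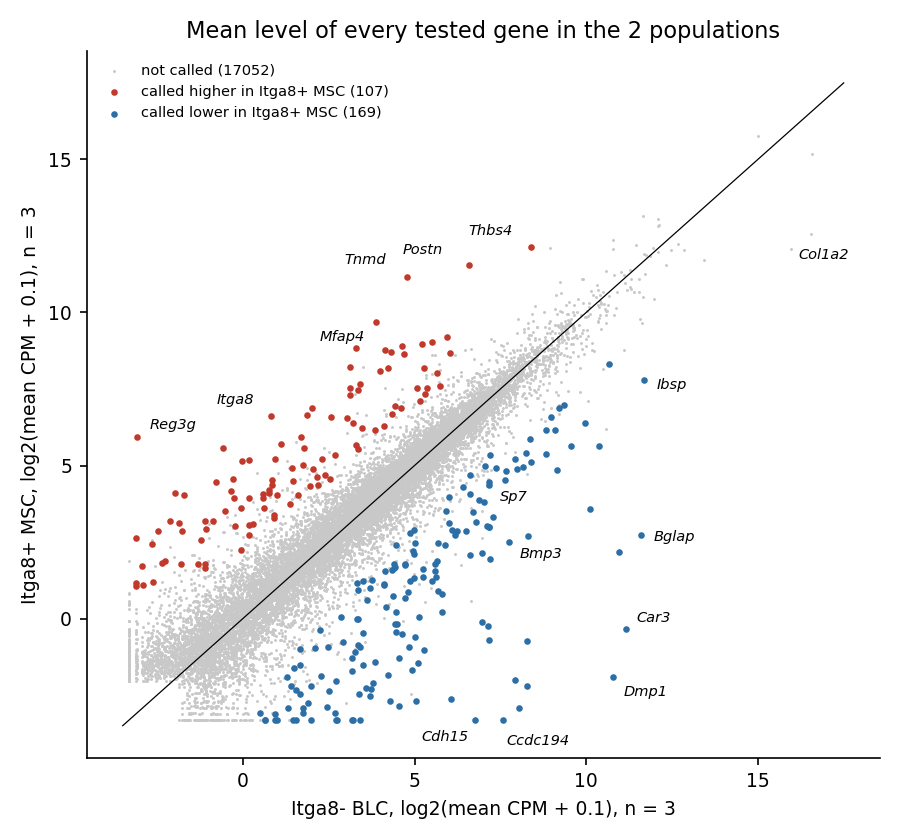
Mean level of each tested gene in Itga8- BLCs (horizontal axis) and Itga8+ MSCs (vertical axis), as log2 of the mean CPM of 3 libraries plus 0.1, with the diagonal marking equal levels. Red points are the 107 genes called higher and blue points the 169 called lower. Dmp1, Ccdc194 and Cdh15 lie at the bottom edge, and Tnmd is at high abundance above the diagonal.

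The sort gene itself checks the labels. Itga8 (mouse build GRCm38, chr2:12106632-12301922, minus strand) was at 70.9, 31.8 and 192 CPM in Itga8+ MSCs and 0.384, 3.94 and 0.62 CPM in Itga8- BLCs. Every Itga8+ library was above every Itga8- library, and Itga8- replicate 2 was the highest of its group. The log2 fold change was 5.88 ± 1.14 (SE), with an edgeR adjusted p of 0.0659 and of 0.0165 with the length trend removed. The call was lost without Itga8+ replicate 1, Itga8- replicate 1 or Itga8- replicate 3, with log2 fold changes of 4.94 to 7.51 over all 6 such fits. Alcam, on which both populations were selected, was low in both, at 1.24, 4.55 and 2.62 CPM in Itga8+ MSCs and 3.7, 4.81 and 5.47 CPM in Itga8- BLCs. Ly6a, which encodes Sca-1, and Ptprc, Pecam1 and Itgav were not called, with log2 fold changes of -0.48, -0.15, -0.14 and 0.10. Pdgfra, which encodes the surface receptor CD140a, was at 13.9, 4.83 and 25.5 CPM in Itga8+ MSCs and 45.8, 139.7 and 52.3 CPM in Itga8- BLCs. Its groups did not overlap, and its log2 fold change of -2.43 missed the threshold (edgeR adjusted p 0.249). It was called lower after removal of the length trend (-2.48, edgeR adjusted p 0.0399), in the fit of all 12 libraries and by DESeq2.

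Tnmd, a transmembrane glycoprotein of tendon and ligament cells (chrX:133850980-133865577, plus strand), was at 616, 4811 and 1479.8 CPM in Itga8+ MSCs and 31.7, 19.2 and 31.7 CPM in Itga8- BLCs. Itga8+ replicate 2 stood highest, and the lowest Itga8+ library was far above the highest Itga8- library. Its log2 fold change was 6.39 ± 0.88 with an edgeR adjusted p of 0.0216, and 6.12 with 0.00499 after removal of the length trend. The call was lost without Itga8- replicate 1 or 3, with a log2 fold change of 5.25 to 6.83 over the 6 fits. Mfap4, an extracellular glycoprotein of microfibrils that binds integrins (chr11:61485431-61488900, plus strand), was at 299, 537 and 426 CPM in Itga8+ MSCs and 19.9, 12.9 and 26.3 CPM in Itga8- BLCs. No library of either population stood apart for Mfap4, which had a log2 fold change of 4.42 ± 0.49 and an edgeR adjusted p of 0.0146. Removal of the length trend gave 4.46 and 0.00329, and Mfap4 was called in all 6 fits that left out a library. Dmp1, an acidic phosphoprotein of the mineralizing matrix made by osteocytes and late osteoblasts (chr5:104202613-104214102, plus strand), was at 0.0477, 0 and 0.445 CPM in Itga8+ MSCs and 1575, 1619 and 2128 CPM in Itga8- BLCs. Itga8+ MSCs held 9 counts of Dmp1 in all and none in replicate 2, while the Itga8- libraries were close together. Its log2 fold change was -13.42 ± 1.24 with an edgeR adjusted p of 0.00989, and the call held in all 6 fits and with the length trend removed.

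**Figure D3:**
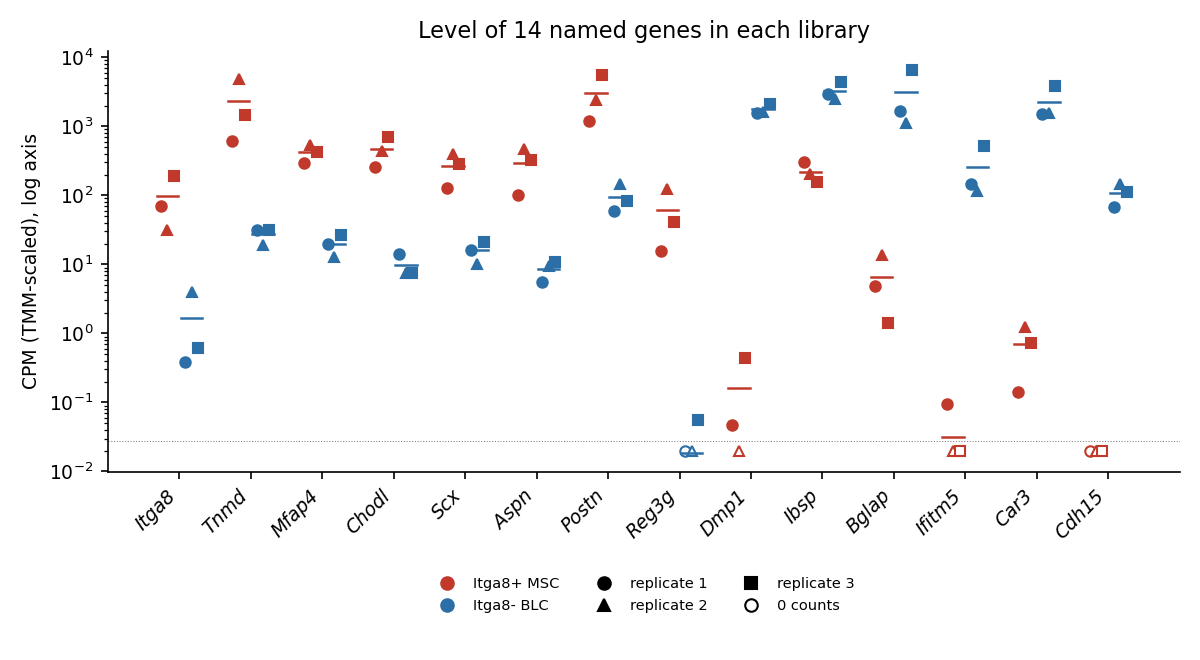
Level of 14 named genes in each library, as TMM-scaled CPM on a log axis. Red symbols are Itga8+ MSCs and blue symbols Itga8- BLCs, circles, triangles and squares are replicates 1, 2 and 3, horizontal bars are means, and open symbols below the dotted line are libraries with 0 counts. The 8 genes on the left are higher in every Itga8+ library and the 6 on the right lower in every one.

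The stretch just before the start of these genes is shown because the factors known to act in each lineage bind short words there. Runx2 binds TGTGGT, and Scx, a basic helix-loop-helix factor, binds E-boxes (CANNTG). Both were searched on both strands of the 250 bases before the RefSeq start, in GRCm38.p6. The 2 osteoblast genes with a Runx word and the 2 higher genes with E-boxes are printed 5′ to 3′ on the strand of the gene, with every match of either word in capitals. A Runx word on the opposite strand reads ACCACA, and an E-box reads as CANNTG on both strands.
Dmp1 (chr5:104202367-104202616, plus strand): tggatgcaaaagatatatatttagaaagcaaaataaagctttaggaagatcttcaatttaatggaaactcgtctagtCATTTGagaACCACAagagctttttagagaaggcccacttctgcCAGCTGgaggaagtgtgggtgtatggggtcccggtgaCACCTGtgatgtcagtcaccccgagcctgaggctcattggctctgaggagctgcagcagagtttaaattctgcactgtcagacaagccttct
Bglap (chr3:88384467-88384716, minus strand): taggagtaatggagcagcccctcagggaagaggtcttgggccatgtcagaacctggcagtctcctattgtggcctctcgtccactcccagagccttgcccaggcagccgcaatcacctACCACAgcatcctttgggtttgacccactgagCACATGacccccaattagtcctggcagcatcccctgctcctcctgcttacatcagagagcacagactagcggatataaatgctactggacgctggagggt
Itga8 (chr2:12301945-12302194, minus strand): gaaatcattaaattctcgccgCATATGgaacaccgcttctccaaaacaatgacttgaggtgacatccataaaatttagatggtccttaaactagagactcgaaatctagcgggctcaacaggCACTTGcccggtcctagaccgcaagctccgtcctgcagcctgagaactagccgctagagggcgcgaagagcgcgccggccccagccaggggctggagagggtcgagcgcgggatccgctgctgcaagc
Chodl (chr16:78930698-78930947, plus strand): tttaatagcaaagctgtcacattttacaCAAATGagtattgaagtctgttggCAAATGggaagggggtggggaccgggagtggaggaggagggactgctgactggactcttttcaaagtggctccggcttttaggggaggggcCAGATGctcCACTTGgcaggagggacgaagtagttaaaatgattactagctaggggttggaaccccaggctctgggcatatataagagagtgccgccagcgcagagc
The Runx word began 164 bases before the start of Dmp1 and 132 bases before that of Bglap, and neither Itga8 nor Chodl held one. E-boxes began 229 and 128 bases before the start of Itga8 and 222, 198, 107 and 98 bases before that of Chodl. The lower genes held E-boxes too, which began 173, 129 and 92 bases before the start of Dmp1 and 100 bases before that of Bglap. The window of Ifitm5 held no Runx word and 1 E-box, and that of Tnmd neither word. Windows were found for 12071 tested genes, of which 10.99% held a Runx word, compared with 14.3% of genes called lower (17 of 119) and 17.4% of genes called higher (12 of 69). E-boxes were present in 58.1% of all windows, in 73.9% of genes called higher (51 of 69) and in 63.9% of genes called lower (76 of 119). The Runx word was thus not more frequent among the lower genes than among the higher. The shares are a description without a test.

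Tendon and ligament genes were called in 1 direction. Of 17 tested, 9 were called higher, none was called lower and the median log2 fold change was 2.92. Of the 9, Tnmd, Mfap4, Chodl and Kera were named as candidates by the study from its bulk RNA-seq, and Ptx4 with its single-cell data. These 5 are not independent evidence of direction. Among the other 12 genes, 4 were called higher and the median was 2.24. The list itself, these 12 included, was chosen with earlier results of these data known. Scx, the transcription factor of tendon progenitors, was at 126, 399 and 285 CPM in Itga8+ MSCs and 16.4, 10.2 and 21.4 CPM in Itga8- BLCs, and its log2 fold change was 4.08 ± 0.58 with an edgeR adjusted p of 0.023. Mkx (Mohawk), a homeobox factor of tendon, was at 41.4, 64.03 and 119 CPM in Itga8+ MSCs and 7.05, 14.1 and 12.1 CPM in Itga8- BLCs, with a log2 fold change of 2.75. All 3 Itga8+ libraries were above the Itga8- libraries for both factors. Thbs4 (thrombospondin 4), a matrix protein of tendon and muscle, was at 2746, 2261 and 8428 CPM in Itga8+ MSCs and 232, 504 and 276 CPM in Itga8- BLCs, and the corneal and tendon proteoglycan gene Kera (keratocan) at 129, 811 and 368 CPM in Itga8+ MSCs and 16.5, 18.9 and 17.1 CPM in Itga8- BLCs. Angptl7, a secreted angiopoietin-like protein, was at 253, 402 and 223 CPM in Itga8+ MSCs and 49.96, 29.8 and 36.1 CPM in Itga8- BLCs. The log2 fold changes of Thbs4, Kera and Angptl7 were 3.73, 4.64 and 2.92. General matrix genes that tendon shares with other connective tissue were not called, among them Dcn at -0.44, Fmod at 0.98, Tnc at 2.31 and Cilp at 3.15 (edgeR adjusted p 0.23). All 9 calls held with the length trend removed and 1 more tendon gene was then called. The number of the 9 that held was 7, 9 and 8 without Itga8+ replicates 1, 2 and 3, and 3, 6 and 4 without Itga8- replicates 1, 2 and 3. The 3 that held in all 6 fits, Mfap4, Chodl and Ptx4, were candidates named by the study. Of the 4 others, Scx, Mkx, Thbs4 and Angptl7, 2, 4 and 3 held without Itga8+ replicates 1, 2 and 3, and 0, 2 and 1 without Itga8- replicates 1, 2 and 3. In the fit without Itga8- replicate 1 their log2 fold changes were 4.06, 2.47, 3.48 and 3.12.

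**Figure D4:**
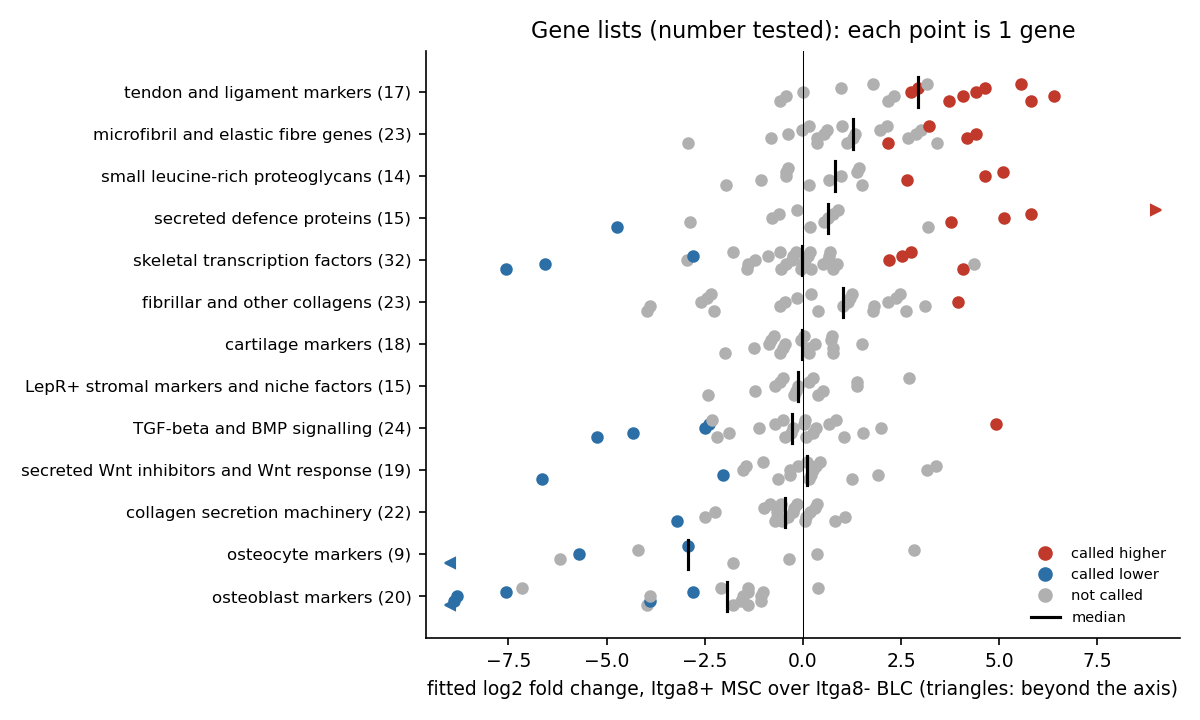
Fitted log2 fold change (Itga8+ MSCs over Itga8- BLCs) of each tested gene of 13 lists, with the number tested in brackets. Red points were called higher, blue points lower and grey points not called, black bars are medians, and triangles mark values beyond the axis. Calls are to the right in the tendon, microfibril and proteoglycan lists, and in the osteoblast and osteocyte lists they are to the left.

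The 12 leading higher genes, ranked by fold change among called genes of at least 10 CPM, held secreted and membrane proteins of several families. Reg3g, a secreted lectin known from epithelial antibacterial defence (chr6:78466269-78468872), was at 15.4, 125 and 41.7 CPM in Itga8+ MSCs and 0, 0 and 0.0563 CPM in Itga8- BLCs. The Itga8- libraries held 1 count in all, and the ratio of scaled levels was 3731 (exact 95% Poisson interval 669.6 to 147366). The call of Reg3g held in all 6 fits that left out a library. Chodl (chondrolectin), a membrane C-type lectin (chr16:78930948-78951733), was at 259, 433 and 692 CPM in Itga8+ MSCs and 14.3, 7.4 and 7.61 CPM in Itga8- BLCs, without overlap. Its log2 fold change was 5.56 ± 0.59 with an edgeR adjusted p of 0.0129. Ptx4, of the pentraxin family, was at 316, 1395 and 778 CPM in Itga8+ MSCs and 15.5, 18.6 and 10.2 CPM in Itga8- BLCs and Aspn (asporin), a leucine-rich proteoglycan that binds TGF-β, at 103, 468 and 321 CPM in Itga8+ MSCs and 5.52, 9.54 and 10.8 CPM in Itga8- BLCs. Their log2 fold changes were 5.81 and 5.11. E030013I19Rik, an antisense RNA that starts inside Itga8 and runs away from it (chr2:12300946-12312315, plus strand), was at 12.6, 15.01 and 21.5 CPM in Itga8+ MSCs and 0.096, 0.525 and 0 CPM in Itga8- BLCs. It shares 9.87% of its exons with Itga8 on the opposite strand, and because the kit does not mark strand, reads in that stretch cannot be told apart. The others were Sel1l3, Shisal2b, the tight junction protein gene Cldn9, the testican proteoglycan gene Spock3 and Bpifb5, at log2 fold changes of 6.71, 6.39, 5.48, 5.31 and 5.13. All 12 were called with the length trend removed, and 9, 12 and 12 without Itga8+ replicates 1, 2 and 3, and 6, 11 and 8 without Itga8- replicates 1, 2 and 3.

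Some further genes of microfibrils and elastic fibres were called. Of 23 tested, 4 were called higher, none lower, and the median log2 fold change was 1.29. With the length trend removed 5 were called higher and 1 lower. Mfap5, a microfibril glycoprotein, was at 77.4, 296 and 98.2 CPM in Itga8+ MSCs and 8.73, 4.64 and 12.5 CPM in Itga8- BLCs, and its log2 fold change was 4.19 ± 0.70 with an edgeR adjusted p of 0.0385. Fbln5 (fibulin 5), an RGD protein needed to assemble elastic fibres, was at 139, 181 and 233 CPM in Itga8+ MSCs and 36.5, 46.4 and 39.3 CPM in Itga8- BLCs, and Loxl1, which crosslinks elastin, at 125, 37.99 and 90.9 CPM in Itga8+ MSCs and 14.9, 7.44 and 4.85 CPM in Itga8- BLCs. Neither overlapped between populations, at log2 fold changes of 2.18 and 3.22. The calls that held numbered 2, 4 and 2 without Itga8+ replicates 1, 2 and 3, and 1, 1 and 1 without Itga8- replicates 1, 2 and 3, and Mfap4 was the one call to hold in all 6. Among small leucine-rich proteoglycans, which coat collagen fibrils, 3 of 14 were called higher (Kera, Aspn and Ogn) and none lower, with a median of 0.83. Ogn (osteoglycin) was at 199.6, 595 and 427 CPM in Itga8+ MSCs and 51.3, 73.1 and 70.8 CPM in Itga8- BLCs, and its log2 fold change was 2.65. Of 23 collagen genes, Col8a1, a short-chain network collagen, was called at 3.95, from 309.7, 119 and 442 CPM in Itga8+ MSCs and 19.8, 25.8 and 10.8 CPM in Itga8- BLCs, and the median of the list was 1.03. With the length trend removed Col12a1 was called higher as well, and Col1a2 and Col5a2 were called lower, at log2 fold changes of 2.23, -4.09 and -2.42. The summed level of the collagens, to which Col1a1 and Col1a2 contribute, was 4624 to 45035 CPM in Itga8+ MSCs and 67204 to 307029 CPM in Itga8- BLCs. The proteoglycan calls that held numbered 3, 3 and 2 without Itga8+ replicates 1, 2 and 3, and 0, 1 and 1 without Itga8- replicates 1, 2 and 3. The Col8a1 call was lost without Itga8+ replicate 1, Itga8- replicate 1 or Itga8- replicate 3.

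Proteins with an RGD motif, the class of ligand that integrin α8 binds, went both ways. Of 17 tested, Mfap4 and Fbln5 were called higher and Dmp1 and Ibsp lower, with a median of -0.03. Npnt (nephronectin), a ligand of integrin α8β1, was at 16.3, 0.985 and 16.6 CPM in Itga8+ MSCs and 22.9, 38.2 and 20.001 CPM in Itga8- BLCs and was not called, although every Itga8+ library was below the Itga8- libraries (log2 fold change -1.26, edgeR adjusted p 0.889). Fn1 (fibronectin) and Spp1 were not called either, at 1.58 and -1.52. Among 8 tested subunits of RGD-binding integrins, Itga8 was the only one called. Its partner Itgb1 was at 509, 303 and 945 CPM in Itga8+ MSCs and 448, 784 and 491 CPM in Itga8- BLCs, with overlapping groups.

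Secreted defence proteins were called in both directions, 4 of 15 higher and 1 lower, against 0.617% and 0.975% of all genes. Their median was 0.65, and 0.16 with the length trend removed. Reg3g, Bpifb5 and Ptx4 are also among the leading higher genes, so this count repeats part of that ranking. Ptx4 is counted in the tendon list as well. Beside Reg3g, Bpifb5 and Ptx4, the higher genes included Bpifb1, a BPI-fold protein known from airway secretions, at 551, 669 and 285 CPM in Itga8+ MSCs and 46.02, 31.99 and 32.3 CPM in Itga8- BLCs. Its log2 fold change was 3.77, and replicate 2 was the highest. All 5 calls held in the 6 fits that left out a library and with the length trend removed.

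Osteoblast genes were called in 1 direction. Of 20 tested, 6 were called lower and none higher, the median log2 fold change was -1.93, and in 15 of the 20 every Itga8+ library lay below every Itga8- library, against 7.78% of all genes. Bglap, Ibsp and Col1a1, which osteoblasts express, were present in all 3 libraries that the labels name osteoblasts, and at lower levels in every Itga8+ library too. The summed level of the list was 44042 to 58941 CPM in Itga8+ MSCs and 196659 to 357650.0 CPM in Itga8- BLCs. Ibsp (chr5:104299171-104311469), an acidic glycoprotein that nucleates mineral, was at 304, 201 and 155 CPM in Itga8+ MSCs and 2965, 2482 and 4399 CPM in Itga8- BLCs. It stayed well detected in Itga8+ MSCs, and its log2 fold change was -3.90 ± 0.47 with an edgeR adjusted p of 0.0165. Bglap (chr3:88383501-88384464, minus strand), which encodes the vitamin K-dependent bone protein osteocalcin, was at 4.82, 13.5 and 1.39 CPM in Itga8+ MSCs and 1689.6, 1110.0 and 6562 CPM in Itga8- BLCs. Its paralogue Bglap2 was at 3.34, 9.24 and 0.723 CPM in Itga8+ MSCs and 939, 623 and 4389 CPM in Itga8- BLCs, and because the 2 genes are nearly identical in sequence, the split of reads between them is uncertain. The log2 fold changes were -8.89 and -8.80, and both calls were lost without Itga8+ replicate 1, at -8.71 and -8.63. Ifitm5, an osteoblast membrane protein of mineralizing bone (chr7:140948958-140950291, minus strand), had 2 counts in Itga8+ MSCs, in replicate values of 0.0954, 0 and 0 CPM, against 144, 115 and 525 CPM in Itga8- BLCs. The ratio of the scaled levels was 7865 (exact 95% Poisson interval 2177 to 64945). A gene on the same strand shares 29.7% of its exonic length.

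Of the transcription factors that direct osteoblast formation, Sp7 was called lower. Sp7 (osterix), without which osteoblasts do not form, was at 27.1, 7.69 and 27.3 CPM in Itga8+ MSCs and 107, 192 and 136 CPM in Itga8- BLCs, so that all Itga8+ libraries were lower but still expressed it (log2 fold change -2.81, edgeR adjusted p 0.0794). The Sp7 call held in 1 of the 6 fits that left out a library, that without Itga8+ replicate 2, with log2 fold changes of -3.06 to -2.42. Runx2 was at 14.6, 20.5 and 23.8 CPM in Itga8+ MSCs and 34.6, 80.4 and 87.8 CPM in Itga8- BLCs and was not called by edgeR (log2 fold change -1.78, adjusted p 0.197), though it was in the fit of all 12 libraries and by DESeq2, which called 412 and 506 genes lower where edgeR on these 6 libraries called 169. The type I collagen genes did not overlap between populations and missed the threshold in the 6-library fit, while the fit of all 12 libraries, DESeq2 and a fit without the filter called both lower. Col1a1 was at 5739, 192 and 6950.4 CPM in Itga8+ MSCs and 73184, 101187 and 15653 CPM in Itga8- BLCs and Col1a2 at 4052, 1359 and 12716 CPM in Itga8+ MSCs and 51422, 186812 and 46741 CPM in Itga8- BLCs. Their log2 fold changes were -3.88 (edgeR adjusted p 0.294) and -3.97 (edgeR adjusted p 0.146), and with the length trend removed Col1a2 was called (edgeR adjusted p 0.0206) and Col1a1 was not (edgeR adjusted p 0.143). Alpl, the phosphatase that supplies phosphate for mineral, was at -1.39 and not called, though the fit of all 12 libraries called it lower. The number of the 6 calls that held was 3, 6 and 5 without Itga8+ replicates 1, 2 and 3, and 5, 5 and 5 without Itga8- replicates 1, 2 and 3.

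Of 9 osteocyte genes tested, 3 were called lower and none higher, with a median of -2.92. Beside Dmp1, these were Irx5, an Iroquois homeobox factor, at 0.286, 0.75 and 2.17 CPM in Itga8+ MSCs and 39.3, 55.9 and 70.7 CPM in Itga8- BLCs, and Tmem119, a membrane protein that promotes osteoblast differentiation, at 65.2, 58.3 and 92.3 CPM in Itga8+ MSCs and 398, 507 and 727 CPM in Itga8- BLCs. Their log2 fold changes were -5.70 and -2.92, and the call of Tmem119 was lost without Itga8+ replicate 1, at -2.86. Phex, an endopeptidase that regulates phosphate, was at 0.286, 0.0469 and 3.78 CPM in Itga8+ MSCs and 43.3, 213 and 43.7 CPM in Itga8- BLCs. Its log2 fold change of -6.20 missed the threshold (edgeR adjusted p 0.149) and passed it with the length trend removed (edgeR adjusted p 0.0564). In the other direction Kcnk2, a potassium channel gene, was at 11.6, 17.9 and 48.9 CPM in Itga8+ MSCs and 1.97, 6.52 and 2.54 CPM in Itga8- BLCs and was called higher with the length trend removed (log2 fold change 2.85, edgeR adjusted p 0.0801). Sost, the Wnt inhibitor that marks embedded osteocytes, was not among the genes tested, since no library reached 0.5 CPM.

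The 12 leading lower genes were nearly off in Itga8+ MSCs, and all 12 held in each fit that left out a library and with the length trend removed. Ccdc194 (chr8:71520120-71525711) had no count in any Itga8+ library and was at 174, 119.6 and 273 CPM in Itga8- BLCs, at least 3794-fold lower against a floor of 3 counts over the 3 libraries. Cdh15 (M-cadherin), an adhesion molecule known from muscle precursors (chr8:122847966-122867397), also had no count in Itga8+ MSCs and was at 67.9, 145 and 113 CPM in Itga8- BLCs, at least 2185-fold lower. AU021092 was at least 210.3-fold lower by the same floor. Car3 (carbonic anhydrase 3), abundant in muscle and fat, was at 0.143, 1.22 and 0.723 CPM in Itga8+ MSCs and 1498, 1558 and 3775 CPM in Itga8- BLCs, with a log2 fold change of -11.66 ± 1.05. Entpd3, an ectonucleotidase, was at 0.0954, 0.0938 and 0.167 CPM in Itga8+ MSCs and 219.7, 368 and 342 CPM in Itga8- BLCs, and its log2 fold change was -11.29 ± 0.61 with an edgeR adjusted p of 0.00111. The Itga8- libraries were close together for Entpd3, and no Itga8+ library reached 1 CPM. Lipc (hepatic lipase) was at 0, 0.281 and 0.167 CPM in Itga8+ MSCs and 142, 177 and 413 CPM in Itga8- BLCs, and Creb3l3, a membrane-bound transcription factor known from liver and gut, at 0, 0.188 and 0 CPM in Itga8+ MSCs and 48.4, 51.2 and 101 CPM in Itga8- BLCs. The amino acid transporter gene Slc36a2 was at 0.0477, 0.328 and 1.11 CPM in Itga8+ MSCs and 174, 251 and 509 CPM in Itga8- BLCs. For all 3 every Itga8+ library was far below every Itga8- library, and the log2 fold changes were -10.62, -9.87 and -9.30. Tmem182 and Ppfia2 had 2 and 3 counts in Itga8+ MSCs, and their ratios of Itga8- to Itga8+ levels were 697 (exact 95% Poisson interval 193 to 5754) and 660.1 (exact 95% Poisson interval 226 to 3201). Exons of other genes on the opposite strand cover 24.5% of Ppfia2.

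Transcription factors of the skeleton were called in both directions. Of 32 tested, 4 were called higher (Scx, Mkx, Msx1 and Six2) and 3 lower, among them Dlx3 and Sp7. The shares of all genes were 0.617% and 0.975%, and the median of the list was -0.03. Msx1, a homeobox factor of skeletal progenitors, was at 38.3, 43.8 and 56.1 CPM in Itga8+ MSCs and 12.3, 9.01 and 9.01 CPM in Itga8- BLCs, and Six2, a factor of connective tissue and kidney progenitors, at 24.8, 12.7 and 37 CPM in Itga8+ MSCs and 3.7, 3.33 and 5.97 CPM in Itga8- BLCs. Their log2 fold changes were 2.19 and 2.52, and neither overlapped between populations. Each of Mkx, Msx1 and Six2 held its call in 1 of the 6 fits that left out a library, that without Itga8+ replicate 2. Dlx3, a homeobox factor of bone, tooth and hair, was at 0.668, 0.235 and 0.278 CPM in Itga8+ MSCs and 21.5, 49.3 and 44.3 CPM in Itga8- BLCs, and its log2 fold change was -6.58 ± 0.68 with an edgeR adjusted p of 0.0128. Dlx3 was called in all 6 fits that left out a library. The 7 calls that held numbered 3, 7 and 3 without Itga8+ replicates 1, 2 and 3, and 2, 3 and 3 without Itga8- replicates 1, 2 and 3.

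Secreted regulators of the TGF-β family differed by member. Of 24 tested, 1 was called higher and 4 lower, against 0.617% and 0.975% of all genes, with a median of -0.27. Mstn (myostatin), a secreted inhibitor of muscle growth, was the higher one, at 58.2, 128 and 169.8 CPM in Itga8+ MSCs and 6.14, 2.98 and 2.65 CPM in Itga8- BLCs, and its log2 fold change was 4.92 ± 0.62 with an edgeR adjusted p of 0.0176. Bmp3, an atypical BMP that opposes osteogenic BMPs, was at 5.53, 4.83 and 6.51 CPM in Itga8+ MSCs and 157, 259 and 226 CPM in Itga8- BLCs, and Bmp8a at 2.91, 1.69 and 2.84 CPM in Itga8+ MSCs and 33.7, 43.3 and 71.3 CPM in Itga8- BLCs. The log2 fold changes were -5.25 and -4.32, and all Itga8+ libraries were lower for both. Inhbb, the activin B subunit, was at -2.49, and the pseudoreceptor gene Bambi at -2.40. The call of Bambi was lost with the length trend removed (edgeR adjusted p 0.16), at a log2 fold change of -2.33. The calls that held numbered 3, 5 and 3 without Itga8+ replicates 1, 2 and 3, and 3, 3 and 3 without Itga8- replicates 1, 2 and 3. Of 19 Wnt inhibitors and response genes, 2 were called lower and none higher, with a median of 0.12. With the length trend removed 1 was called higher and 3 lower. The secreted inhibitors Sfrp2 (log2 fold change 3.43, edgeR adjusted p 0.0767) and Frzb (-1.50, edgeR adjusted p 0.0654) were then gained. Dkk1, a secreted Wnt inhibitor, was at 0.477, 0 and 0.0556 CPM in Itga8+ MSCs and 10.1, 15.1 and 31.1 CPM in Itga8- BLCs, and Tcf7, a Wnt effector and target, at 19.2, 9.38 and 17.8 CPM in Itga8+ MSCs and 52.4, 69.1 and 69.5 CPM in Itga8- BLCs. Their log2 fold changes were -6.66 and -2.04, and neither call held without Itga8- replicate 1 or Itga8- replicate 3.

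Of 8 factors that regulate osteoclasts, Il34, a ligand of the Csf1 receptor, was called higher, at 21.1, 23.4 and 25.8 CPM in Itga8+ MSCs and 4.46, 5.03 and 7.66 CPM in Itga8- BLCs and a log2 fold change of 2.03. It held in 1 of the 6 fits, that without Itga8+ replicate 2. Csf1, Tnfsf11 (RANKL) and Tnfrsf11b (osteoprotegerin) were not called, at 0.37, -1.13 and 0.06. In the collagen secretion machinery 1 of 22 genes was called, Creb3l1, the stress transducer that osteoblasts need to secrete type I collagen. It was at 33.7, 10.7 and 48.5 CPM in Itga8+ MSCs and 219, 325 and 308 CPM in Itga8- BLCs, with a log2 fold change of -3.20, and held in 2 of the 6 fits, those without Itga8+ replicates 2 and 3. The median of the list was -0.44, and 3 of its genes were called lower with the length trend removed. Of 12 coagulation and fibrinolysis genes Tfpi2, a matrix-bound protease inhibitor, was called lower at -4.55, and that call held only without Itga8- replicate 2.

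At 3 loci (GRCm38), chosen with the results known, called genes lay beside related genes that were not called or were called the other way. On chromosome 5, Sparcl1, a matricellular gene of the SPARC family (chr5:104079111-104113733), was higher at 313, 585 and 859 CPM in Itga8+ MSCs and 57.5, 72.9 and 55.6 CPM in Itga8- BLCs, while Dmp1 and Ibsp further along were lower. Its log2 fold change was 3.24 ± 0.48 with an edgeR adjusted p of 0.0277. Mepe and Spp1, beyond them, were not called, at -4.20 and -1.52. On chromosome 10, Kera (chr10:97606879-97613692) was called while its neighbours Lum at -1.96, Dcn at -0.44 and Epyc at -0.39 were not, and Lum passed the threshold in the lower direction with the length trend removed (edgeR adjusted p 0.0956). On chromosome 13, Aspn (chr13:49544443-49567565) and Ogn were called higher, and Omd, which lies between them and encodes a proteoglycan of mineralized matrix, was at 63.2, 315 and 60.04 CPM in Itga8+ MSCs and 149.5, 208 and 555 CPM in Itga8- BLCs. All Itga8+ libraries of Omd except replicate 2 were below the Itga8- libraries, and Omd was not called (log2 fold change -1.06).

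**Figure D5:**
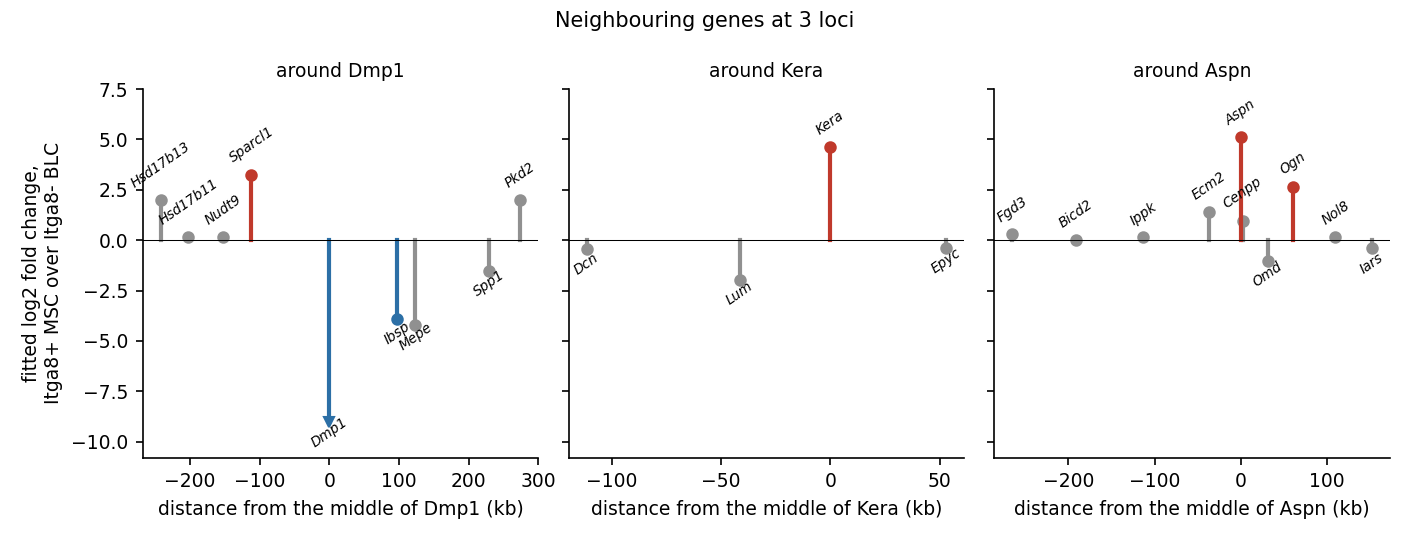
Fitted log2 fold change (Itga8+ MSCs over Itga8- BLCs) of tested genes against their distance in kb from the middle of Dmp1, Kera and Aspn. Red stems were called higher, blue stems lower and grey stems not called, and the triangle marks Dmp1, whose value of -13.42 lies beyond the axis. Higher and lower calls stand side by side around Dmp1.

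Several lists gave no call before removal of the length trend. For 18 cartilage genes the median log2 fold change was -0.01, with Sox9 at -0.57, Acan at -0.05 and Col2a1 at 0.77, and none was called with the trend removed. These genes were abundant and uneven between replicates. They summed to 106451, 37941 and 150590 CPM in Itga8+ MSCs and 66877, 104311 and 28358 CPM in Itga8- BLCs, with overlapping groups. At an unadjusted p under 0.05 there were 2 genes, and DESeq2 called 1 of the 18 higher. For 15 LepR+ stromal genes and niche factors the median was -0.13. Cxcl12, the chemokine that retains haematopoietic stem cells in the marrow, was at 185, 124 and 428 CPM in Itga8+ MSCs and 195, 274 and 189 CPM in Itga8- BLCs, and Kitl (stem cell factor) at 7.3, 2.25 and 5.68 CPM in Itga8+ MSCs and 3.55, 4.2 and 4.9 CPM in Itga8- BLCs. Their groups overlapped, and the log2 fold changes were 0.16 and 0.27. Lepr, the leptin receptor that marks stromal MSCs of the marrow, was at 27.1, 11.8 and 59.5 CPM in Itga8+ MSCs and 7.97, 46.5 and 14.9 CPM in Itga8- BLCs and was not called. In this list 2 genes were at an unadjusted p under 0.05, and DESeq2 called 1 higher (Lpl) and 1 lower (Pdgfra), the latter also with the length trend removed. For 10 enzymes and transporters of mineralization the median was 0.73, with 2 genes at an unadjusted p under 0.05 and 1, Fam20a, called higher by DESeq2. Fam20a, a regulator of secreted kinase activity, was at 19.7, 23.1 and 34.1 CPM in Itga8+ MSCs and 7.01, 9.45 and 7.32 CPM in Itga8- BLCs and was also called higher with the length trend removed (log2 fold change 1.71, edgeR adjusted p 0.0823). The median of cell cycle genes was 1.00, with 4 at an unadjusted p under 0.05 and 2 called higher by DESeq2. The median of immediate early and heat shock genes was -0.35, with 4 at an unadjusted p under 0.05 and 2 called lower by DESeq2. Of these Ier3, an immediate early gene, was also called lower with the length trend removed (log2 fold change -2.22, edgeR adjusted p 0.0823).

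Markers of other cell types were examined by the same fit. Across 7 lists of endothelial, neutrophil, B lineage, macrophage and osteoclast, erythroid, megakaryocyte, and smooth muscle and pericyte markers, 68 genes were tested by edgeR and none was called. Of these genes 6 were at an unadjusted p under 0.05, and 4 were called by DESeq2. With the length trend removed 1 was called, Acta2, the smooth muscle actin gene, higher in Itga8+ MSCs. It was at 61.2, 219 and 121 CPM in Itga8+ MSCs and 21.3, 27.04 and 27.9 CPM in Itga8- BLCs (log2 fold change 2.29, edgeR adjusted p 0.0564). Neutrophil granule genes summed to 2886 to 17769 CPM in Itga8+ MSCs and 5992 to 8651 CPM in Itga8- BLCs, with Itga8+ replicate 2 highest, and erythroid genes to 180.1 to 1815 CPM in Itga8+ MSCs and 378 to 504 CPM in Itga8- BLCs, again highest in that library. Schwann cell markers gave 2 of 10 called lower, against 0.975% of all genes. The summed level of the Schwann list was 432 to 599 CPM in Itga8+ MSCs and 536 to 749 CPM in Itga8- BLCs, and neither call held without Itga8- replicate 3. Of 13 skeletal muscle and satellite cell genes 8 were tested and Cdh15 was called. With the length trend removed Tnni2, a troponin of fast muscle fibres, was called lower as well (log2 fold change -2.13, edgeR adjusted p 0.0579), from 7.73, 17.9 and 8.96 CPM in Itga8+ MSCs and 31.9, 27.2 and 96 CPM in Itga8- BLCs. Pax7, Myf5, Calcr, Myh1 and Myh4 did not reach 0.5 CPM in any library, Myod1 had 1 count in Itga8+ MSCs and 110 in Itga8- BLCs, and the muscle genes Ckm and Acta1 were not called, at log2 fold changes of 1.96 and 2.27. The part of other cells in the results above was not tested.

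Set beside the other populations of the series, in a scaling of all 12 libraries (mean ± SD, n = 3), the called genes had mixed levels. Of the 107 higher genes, 77 had their highest mean in Itga8+ MSCs, 14 in CD51+CD140a+ MSCs and 16 in Sca-1+ MSCs. Of the 169 lower genes, 144 had their highest mean in Itga8- BLCs, 24 in CD51+CD140a+ MSCs and 1 in Sca-1+ MSCs. Itga8 averaged 102 ± 85.1 CPM in Itga8+ MSCs and 65.1 ± 16.4 CPM in CD51+CD140a+ MSCs, but 2.29 ± 0.531 CPM in Sca-1+ MSCs. Mfap4 was at 0.155 ± 0.111 CPM in CD51+CD140a+ MSCs and 36.4 ± 8.27 CPM in Sca-1+ MSCs, against 445 ± 140.3 CPM in Itga8+ MSCs. Tnmd was at 0.0527 ± 0.0688 and 92.3 ± 29.5 CPM in the same order, against 2476 ± 2459 CPM. Angptl7 and Aspn were higher on average in Sca-1+ MSCs, at 7932 ± 5602 and 593 ± 77.7 CPM, than in Itga8+ MSCs, at 310.1 ± 114 and 316 ± 204 CPM. Dmp1 averaged 1859 ± 341 CPM in Itga8- BLCs and 7.41 ± 1.76 CPM in CD51+CD140a+ MSCs. These comparisons across populations are levels without a test.

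Per transcript length, on the TPM scale, the mean level in Itga8+ MSCs was 5279.7 for Tnmd, 749.9 for Mfap4, 1686 for Ptx4, 298 for Chodl, 610.2 for Kera and 50.4 for Itga8. In Itga8- BLCs it was 13791 for Bglap, 4760.5 for Ibsp, 1958 for Dmp1 and 2296 for Car3. Itga8, on which the sort was made, was thus the lowest of the 6 named for Itga8+ MSCs by this measure.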

How the data were processed

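The authors deposited raw counts of reads per Ensembl gene, without normalization. Per the study's methods, RNA of 2000 sorted cells was amplified with a SMART-Seq v4 kit and made into Nextera XT libraries, which do not mark strand. The study's text names TopHat and Bowtie2 for mapping, whereas the submitters' processing notes list FastQC 0.11.7, Trimmomatic 0.38, HISAT2 2.1.0, SAMtools 1.9, featureCounts 1.6.3 and mm10. Which aligner made the counts, the use of strand and the annotation release are not given in the sources used here. Symbols, coordinates and exonic lengths came from GENCODE M21.

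Counts of the 6 libraries (17580677 to 27574679 each) were fitted with edgeR 4.0.16 (R 4.3.3) by its quasi-likelihood test after TMM normalization, restricted to genes that reached 0.5 CPM in 1 library or more. Genes were called below an FDR of 0.1 with more than 2-fold change. The length trend was fitted per library (lowess, span 0.3) and entered as offsets. In simulated data with 200 changed genes among 17328, edgeR recovered 14% of those changed 4-fold and 93% of those changed 16-fold, with 16 false calls, whereas DESeq2 recovered 57% and 97% with 108 false calls. Those counts were drawn from edgeR's own dispersions, with independent genes and no length trend. The rates need not hold for the real libraries. Named genes were the sort genes and given markers, the 12 leading called genes in each direction, and up to 6 called and 4 leading members of each of 30 lists. Members and lists were chosen with earlier results of these data known, and genes named outside this rule are marked as such. Some genes that the rule would name are counted in their lists but not reported here. Alternatives were DESeq2 1.42.0, limma 3.58.1, RLE size factors, library totals, other filters, all 12 libraries, a replicate block, a stricter FDR of 0.05 and leaving out single libraries. Other data of the study, single-cell data included, were not used here. Promoter sequences are from RefSeq (GRCm38.p6), and figures were drawn with matplotlib 3.10.9 under Python 3.11.15.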

Additional observations from a re-analysis of the deposited data

How the results depend on the processing

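Against 107 genes higher and 169 lower, a fit of all 12 libraries called 318 and 412, DESeq2 384 and 506, no filter beyond 1 count 174 and 272, removal of the length trend 183 and 274, and its removal around each population's own mean 184 and 278. An FDR under 0.05 gave 59 and 102. Leaving out 1 library gave 19 to 135 higher and 54 to 181 lower calls. limma-trend, RLE size factors, library totals and a filter of 10 counts in 3 libraries stayed within 1.5 times of both counts. With a block for the replicate number 0 genes were called higher and 0 lower by edgeR (851 genes at an unadjusted p under 0.05, against 1497 without the block), and with the block and the length trend removed 27 and 58 were. Deviations of same-numbered libraries correlated at -0.74 to 0.35 across genes. The length trend was still in these deviations, and its slopes had opposite signs in replicates 2 and 3 of the 2 populations. The correlations therefore cannot decide whether the numbers pair the samples, and the main fit took the samples as unpaired. Itga8+ replicate 3 correlated best with Itga8- replicate 2 (0.777) and Itga8+ replicate 2 with Itga8- replicate 3 (0.747), the pairs whose slopes with gene length shared a sign, and replicate 1 with replicate 1. No value of a named gene changed direction while called. Over all alternatives 1174 results of single genes were on the same side of the threshold, 248 missed it and 54 newly passed it. Medians of lists stayed within the spread between replicates in 470 cases and moved beyond it in 40. At 3 libraries a population and this spread, 4-fold changes were mostly missed by edgeR in data simulated from its own dispersions.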

Other observations

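Some called genes outside the lists stood out by level and were chosen after their values were seen. Postn (periostin), a matricellular protein of periosteum, tendon and ligament, was at 1207, 2376 and 5462 CPM in Itga8+ MSCs and 59.6, 146 and 82.5 CPM in Itga8- BLCs, and its log2 fold change was 4.97 ± 0.72 with an edgeR adjusted p of 0.0251. The call was lost without Itga8- replicate 1 or 3, at 4.68 and 4.85. The homeobox factors Meox1 and Meox2, known from somite and limb muscle patterning, were at 15.2, 16.04 and 39.3 CPM in Itga8+ MSCs and 0.624, 1.05 and 0.507 CPM in Itga8- BLCs and at 26.2, 55.2 and 62.5 CPM in Itga8+ MSCs and 3.41, 1.97 and 4.56 CPM in Itga8- BLCs, with log2 fold changes of 4.99 and 3.86. The call of Meox2 was lost without Itga8- replicate 1, at 3.83. Eya2, a transcriptional cofactor of the Six2 family, was called higher at a log2 fold change of 4.02, beside 2.52 for Six2. Prph (peripherin), an intermediate filament protein of peripheral neurons, was called higher at 4.64 on the log2 scale.

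Chrna1, a subunit of the muscle acetylcholine receptor, had no count in Itga8+ MSCs and was at 0.96, 10.6 and 8.17 CPM in Itga8- BLCs, at least 132-fold lower against a floor of 3 counts over the 3 libraries. Mlip was at 0.334, 0.891 and 0.334 CPM in Itga8+ MSCs and 80.2, 91.9 and 259 CPM in Itga8- BLCs, with a log2 fold change of -8.09. Pygm, the muscle glycogen phosphorylase, was at 1.05, 0.657 and 3.00 CPM in Itga8+ MSCs and 12.5, 27.8 and 21.2 CPM in Itga8- BLCs, with a log2 fold change of -3.71. Hrc, a calcium-binding protein of the sarcoplasmic reticulum, had 2 counts in Itga8+ MSCs, and the ratio of Itga8- to Itga8+ levels was 162 (exact 95% Poisson interval 44.98 to 1342). The libraries of the populations did not overlap for these genes. Chrna1 lost its call in 3 of the 6 fits that left out a library, those without Itga8+ replicate 1 and Itga8- replicates 2 and 3, and Pygm held only in those without Itga8+ replicates 2 and 3. These lower genes were also chosen after their values were seen. Of the 8 skeletal muscle and satellite cell genes tested as a list, 1 was called lower and none higher.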
